A study of Homo sapiens with 18 samples.

Results

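This comparison drew on 6 of the 18 ATAC-seq libraries, 3 of ALDH-high and 3 of ALDH-low PC9 cells, both sorted after 12 h in 1 µM erlotinib. Their 6 peak lists merged into 57505 regions on chromosomes 1 to 22 and X. A region was called gained when all 3 ALDH-high and no ALDH-low erlotinib libraries held a peak in it, which 515 regions did, and lost in the reverse case, which 256 did. The same rule was applied to lists of equal length, which kept from each library as many of the highest-scoring peaks as the shortest of the 18 lists held, and which gave 318 gained and 248 lost regions of 37611. Because presence in these 6 lists defines the members, their counts are a description without a test.

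PC9 is an established human lung adenocarcinoma line whose growth depends on a mutant, constantly active EGFR. Besides both erlotinib fractions, the study held 3 libraries each of both fractions sorted after 12 h in the vehicle DMSO, of drug-tolerant persisters (DTP, the cells alive after 8 days in 1 µM erlotinib) and of unsorted PC9 cells in DMSO. All cells were frozen in medium with DMSO and thawed before the assay. The labels tell the libraries of a group apart by the letters a, b and c without saying that they came from separate cultures, so every p-value rests on the spread between libraries, and that spread may be only technical. Cells were sorted once treatment was over, and each fraction may hold other cells with the drug than without it.

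Erlotinib blocks the EGFR kinase and so cuts off the signal that these cells need to proliferate, and most cells die while a small persister population remains. Aldehyde dehydrogenases oxidise reactive aldehydes, and high activity of these enzymes is a common marker of stem-like and drug-tolerant tumour cells. Aldefluor is a substrate that becomes trapped and fluorescent in cells with high activity, which lets the fractions be sorted alive. In ATAC-seq a transposase inserts adapters into accessible DNA, so a peak marks a promoter, enhancer or other site not packed into nucleosomes. Distal sites differ most between cell states, whereas many promoters are open in all of them.

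The fractions under erlotinib did not differ detectably in the size of their peak lists. ALDH-high libraries a, b and c had 40710, 34317 and 40600 peaks, against 40670, 36458 and 32583 in ALDH-low libraries. The means were 38542 ± 3660 in ALDH-high and 36570 ± 4045 in ALDH-low cells (SD, n = 3 each), with overlapping ranges (difference 1972, exact permutation p = 0.6). Without ALDH-low library c the difference was −21.7 peaks. Peaks covered 45.15, 38.51 and 45.55 Mb in ALDH-high libraries, against 45.96, 41.36 and 37.25 Mb in ALDH-low libraries. These ranges also overlapped (difference 1.55 Mb, exact permutation p = 0.7). Median peak width was 1000.3 ± 12.5 bp in ALDH-high and 1005.5 ± 12.85 bp in ALDH-low libraries (difference −5.17 bp, exact permutation p = 0.6). With 3 libraries against 3, the smallest p possible is 0.1.

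All 6 libraries called 23132 of the 57505 regions, and 13428 regions (23.4%) had a peak in a single library. The 515 gained regions were 0.896% and the 256 lost regions 0.445% of all merged regions. In equal-size lists the shares were 0.845% gained and 0.659% lost. The gained share of all separated regions was 66.8% in whole lists and 56.2% in equal-size lists. ALDH-low library c had the shortest list of the 6 and ALDH-high library b the next. Without ALDH-low library c there were 703 gained and 870 lost regions, and without ALDH-high library b 1506 gained and 388 lost. The side with more members therefore turned on 1 library when whole lists were used.

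**Figure D1:**
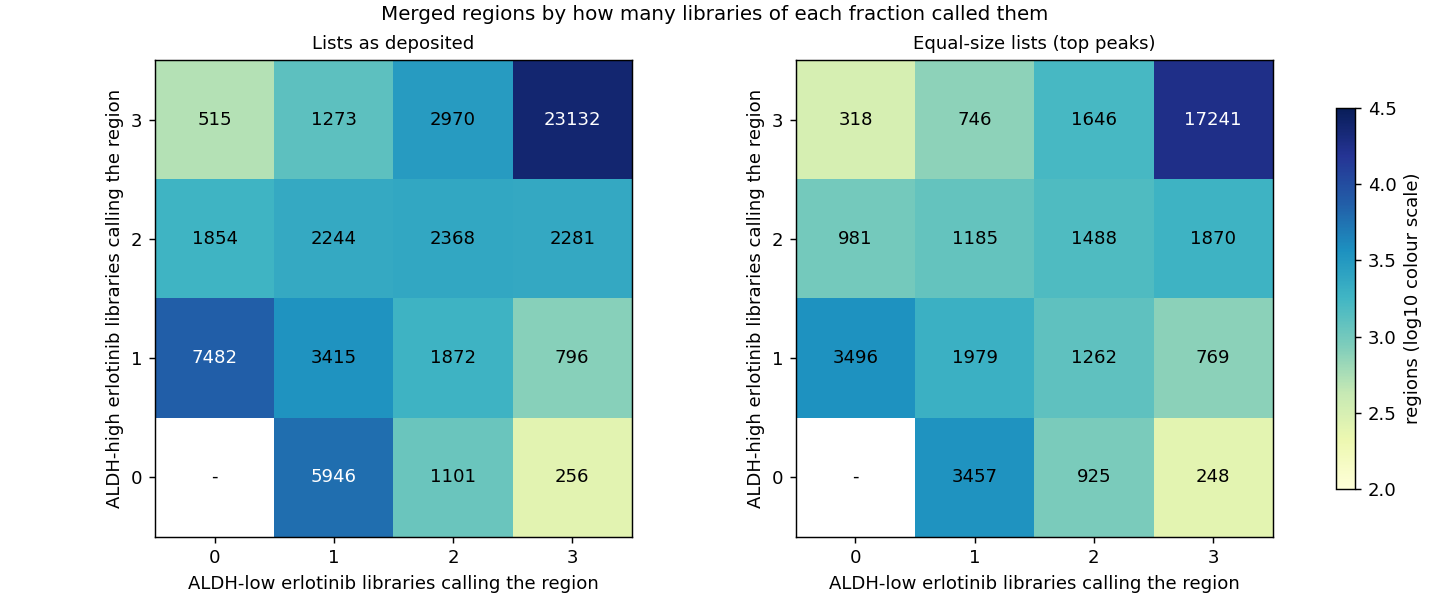
Merged regions by the number of ALDH-high (vertical axis) and ALDH-low (horizontal axis) erlotinib libraries that called them, in lists as deposited (left) and in equal-size lists of the top peaks (right); colour is the number of regions on a log10 scale. Gained regions are the upper left cell (515 and 318), lost regions the lower right cell (256 and 248), and regions called by all 6 libraries the upper right cell (23132 and 17241).

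The gained and lost regions were mostly weak peaks. Each peak was given a percentile by the rank of its deposited score within its own list. In the weakest of the 3 libraries that held it, the median gained region stood at percentile 11.2 and the median lost region at 9.39. The median region common to all 6 libraries stood at 51.1 in the weakest of the 6. The gained regions had a median width of 957 bp and the lost regions 939.5 bp, narrower than the 1475 bp of common regions. The rule had many near misses on both sides: 463, 990 and 401 regions lacked only ALDH-high library a, b or c to be gained. For losses, 194, 294 and 613 regions lacked only ALDH-low library a, b or c.

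Membership depended on list length. Only 41 regions were gained in both sets of lists (7.96% of the 515 and 12.9% of the 318). Likewise 18 were lost in both (7.03% of the 256 and 7.26% of the 248). Of the 515, 174 had no peak in the equal-size list of any ALDH-high library. Of the 318, 52 were called in all 3 full ALDH-low lists, at ranks too low for the equal-size lists. These 52 thus mark differences in rank and not in presence. Another 119 were called in 2 and 106 in 1 of those full lists, and only 41 in none. Of the 248 lost regions only 18 were called in no full ALDH-high list. At the margin of the rule, the gained region chr14:69545707-69546772 (coordinates throughout are hg19, counted from 1) stood at percentiles 0.0221, 15.8 and 69.6 in ALDH-high libraries. Just outside it, chr1:109045359-109046546 stood at 79.0, 78.2 and 85.1 in ALDH-high libraries and was called at 26.8 in ALDH-low library b only.

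The gained and lost regions differed in where else they were open, measured in the 12 libraries that took no part in choosing them. To set aside list length, a region counted as called here when it held a peak of the library's equal-size list. Gained regions were called at 33.6%, 36.5% and 31.5% in ALDH-high DMSO libraries, against 30.9%, 31.8% and 31.7% in ALDH-low DMSO libraries. Lost regions were called far less often, at 7.81%, 8.98% and 8.59% in ALDH-high DMSO and at 10.5%, 12.1% and 11.3% in ALDH-low DMSO libraries. In DTP 39.6%, 37.3% and 36.5% of gained regions were called, against 38.6%, 41.6% and 40.4% in PC9. Lost regions were called at 7.03%, 7.03% and 9.77% in DTP and at 9.38%, 7.81% and 7.81% in PC9. Across all merged regions the mean share lay between 42.4% and 43.3% in each of the 4 groups. In each of the 12 libraries, then, gained regions were called more often than lost regions, and both less often than merged regions at large. With whole lists gained regions were still called more often than lost regions, at 68.5% against 32.3% in DTP and 63.2% against 25.9% in PC9. There they exceeded merged regions at large, of which DTP called 63.2% and PC9 59.3%. Their place against that background thus turned with list length in DTP and PC9. In whole DMSO lists gained regions stayed below merged regions, at 44.1% against 49.8% in ALDH-high and 31.5% against 43.1% in ALDH-low libraries.

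The same measure was used to ask whether the fractions under DMSO differed at these sites. ALDH-high DMSO libraries called 33.9% ± 2.53 of gained regions and ALDH-low DMSO libraries 31.5% ± 0.514 (SD, n = 3 each; difference 2.39 percentage points, exact permutation p = 0.3). Over all merged regions the difference was 0.354 points. The size for gained regions depended on the setting, at 12.62 points with whole lists, 10.36 with a score of at least 100, 4.193 with members from equal-size lists (exact permutation p = 0.1 each) and 1.068 without ALDH-high DMSO library b. In whole lists ALDH-high DMSO libraries also called more of all merged regions, 49.8% against 43.1% in ALDH-low DMSO. For lost regions the values were 8.46% ± 0.597 in ALDH-high DMSO and 11.3% ± 0.781 in ALDH-low DMSO cells, without overlap (difference −2.86 points, exact permutation p = 0.1, the smallest possible). That direction turned to 6.77 points when the DMSO lists were used whole. DTP and PC9 differed by −2.39 points for gained regions (exact permutation p = 0.2) and by −0.391 points for lost regions (p = 0.6).

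**Figure D2:**
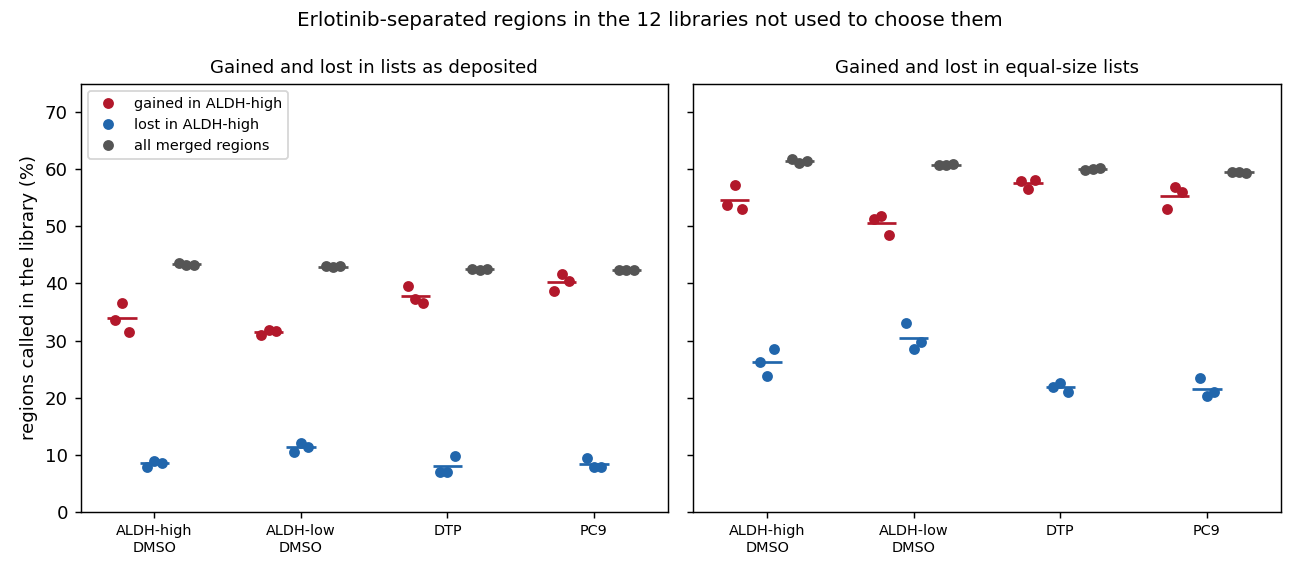
Percent of gained (red), lost (blue) and all merged regions (grey) called in the equal-size list of each library that was not used to choose them, with regions chosen from lists as deposited (left) and from equal-size lists (right); points are libraries a, b and c and lines are group means. Gained regions lie above lost regions in all 4 groups of both panels, for example at 33.9% against 8.46% in ALDH-high DMSO cells on the left.

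By their state without the drug, counted with whole lists, fewer gained than merged regions were called throughout the DMSO libraries. Of the 515, 72 (14%) were called in all 6 sorted DMSO libraries, against 28.5% of all merged regions. Of the 72, 52 (72.2%) were also called in all DTP and all PC9 libraries, against 93.3% of merged regions with 6 DMSO calls. In no sorted DMSO library were 158 (30.7%) called, close to the 32.9% of all merged regions. Of those 158, 39 (24.7%) were called in all 3 DTP and no PC9 libraries, a pattern that held for 1873 (9.9%) of the 18928 merged regions without a DMSO call. The remaining 285 gained regions were called in 1 to 5 DMSO libraries. Whatever their state under DMSO, 51 gained regions (9.9%) were called in all DTP and no PC9 libraries, against 4.38% of all merged regions, and 25 (4.85%) in all PC9 and no DTP libraries, against 2.15%. For lost regions these counts were 14 (5.47%) and 6 (2.34%).

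The 256 lost regions were more often without a DMSO call. One (0.391%) was called in all 6 sorted DMSO libraries, against 28.5% of all merged regions, and 149 (58.2%) in none, against 32.9%. Of these 149, 10 (6.71%) were called in all DTP and no PC9 libraries, and 79 (53.0%) in no DTP or PC9 library, near the 48.2% of merged regions without a DMSO call. These 79, or 30.9% of the lost regions, were thus called in the 3 ALDH-low erlotinib libraries alone. Among the gained regions 23 (4.47%) were called in the 3 ALDH-high erlotinib libraries alone, and 15.9% of all merged regions had no call outside both erlotinib fractions. In equal-size lists 77 of 248 lost (31.0%) and 21 of 318 gained regions (6.6%) had no call elsewhere, against 11.6% of merged regions. Those 77 were 81.1% of the 95 lost regions without a DMSO call, against 63.0% of such merged regions. The nearness to merged regions without a DMSO call was thus seen with whole lists only.

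The 15 gained regions with the highest percentile in their weakest library were open in various other groups. The first, chr1:218054309-218055588, stood at percentiles 63.4, 67.4 and 60.2 in ALDH-high erlotinib libraries and in none of ALDH-low erlotinib. It was called at 67.9, 77.8 and 88.6 in DTP libraries and in no DMSO or PC9 library. The region chr2:38237863-38238820 stood at 58.1, 55.3 and 56.2 in ALDH-high erlotinib libraries and at 30.2, 40.5 and 30.2 in DTP, and otherwise only at 1.18 in PC9 library c. Apart from that weak PC9 call, both were called in ALDH-high erlotinib and DTP libraries only.

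Other strong gained regions were open in nearly every group. The region chr2:238340727-238342106 stood at 74.0, 55.4 and 66.6 in ALDH-high erlotinib libraries and was called in no ALDH-low erlotinib library. It ranked at 85.2, 79.9 and 84.5 in ALDH-high DMSO and at 90.1, 65.8 and 76.0 in ALDH-low DMSO libraries. In DTP it stood at 93.3, 93.4 and 95.5, and in PC9 at 98.7, 98.2 and 99.2. The region chr5:126071454-126072402 stood at 72.7, 76.2 and 46.5 in ALDH-high erlotinib libraries and in all 12 libraries of other groups, with 88.7, 92.1 and 73.3 in PC9. Of the 15, 6 were called in all 12 other libraries, 10 in all PC9 and 15 in all DTP libraries, and 0 in the 3 defining libraries alone. Over all merged regions those shares were 26.6%, 49.3%, 52.3% and 15.9%, and these 15 were picked for their high ranks.

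A region from the equal-size lists made the contrast larger. The region chr12:21226182-21227521 stood at 56.4, 43.3 and 55.5 in ALDH-high erlotinib libraries and had no top peak in ALDH-low erlotinib. It ranked at 89.3, 99.0 and 96.2 in ALDH-high DMSO and at 96.2, 94.1 and 97.1 in ALDH-low DMSO libraries. It was thus among the strongest sites of DMSO cells, ranked lower in ALDH-high erlotinib and missed the equal-size lists of ALDH-low erlotinib. The region chr7:142210426-142211584 had 43.2, 44.7 and 45.2 in ALDH-high erlotinib and 67.4, 63.6 and 70.1 in DTP libraries, with a single other call at 6.23 in PC9 library c. In whole lists, 2 of the 3 ALDH-low erlotinib libraries held a weaker peak in the chromosome 12 region and 1 of the 3 in the chromosome 7 region.

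The 15 strongest lost regions were seldom open elsewhere. The region chr17:60242288-60243468 stood at 45.2, 40.6 and 54.3 in ALDH-low erlotinib libraries, chr2:20293102-20295020 at 39.9, 36.8 and 37.5, and chr15:37195993-37196991 at 29.3, 29.5 and 48.2. None of the 3 was called in any of the other 15 libraries. In equal-size lists the chromosome 15 region kept a peak in only 2 of the 3 ALDH-low erlotinib libraries. It was among 7 of the 15 that were no longer separated there. The strongest, chr6:52590168-52591098, stood at 52.9, 57.8 and 69.4 in ALDH-low erlotinib and was called in 4 other libraries, 2 of ALDH-high DMSO (27.6 and 5.41) and 2 of PC9 (38.4 and 1.46). Of the 15, 5 were called in no other library, 0 in all 12, 2 in all DTP and 1 in all PC9 libraries. Over all merged regions those shares were 15.9%, 26.6%, 52.3% and 49.3%. Among all lost regions 30.9% had no call elsewhere, so the 5 of 15 are near that share. In equal-size lists 8 of the 15 were called in no other library, against 31.0% of all lost and 11.6% of all merged regions. Among the 8 was chrX:113178383-113179470, with 44.7, 48.3 and 50.4 in ALDH-low erlotinib. In whole lists 2 of the 3 ALDH-high erlotinib libraries held a weaker peak there.

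**Figure D3:**
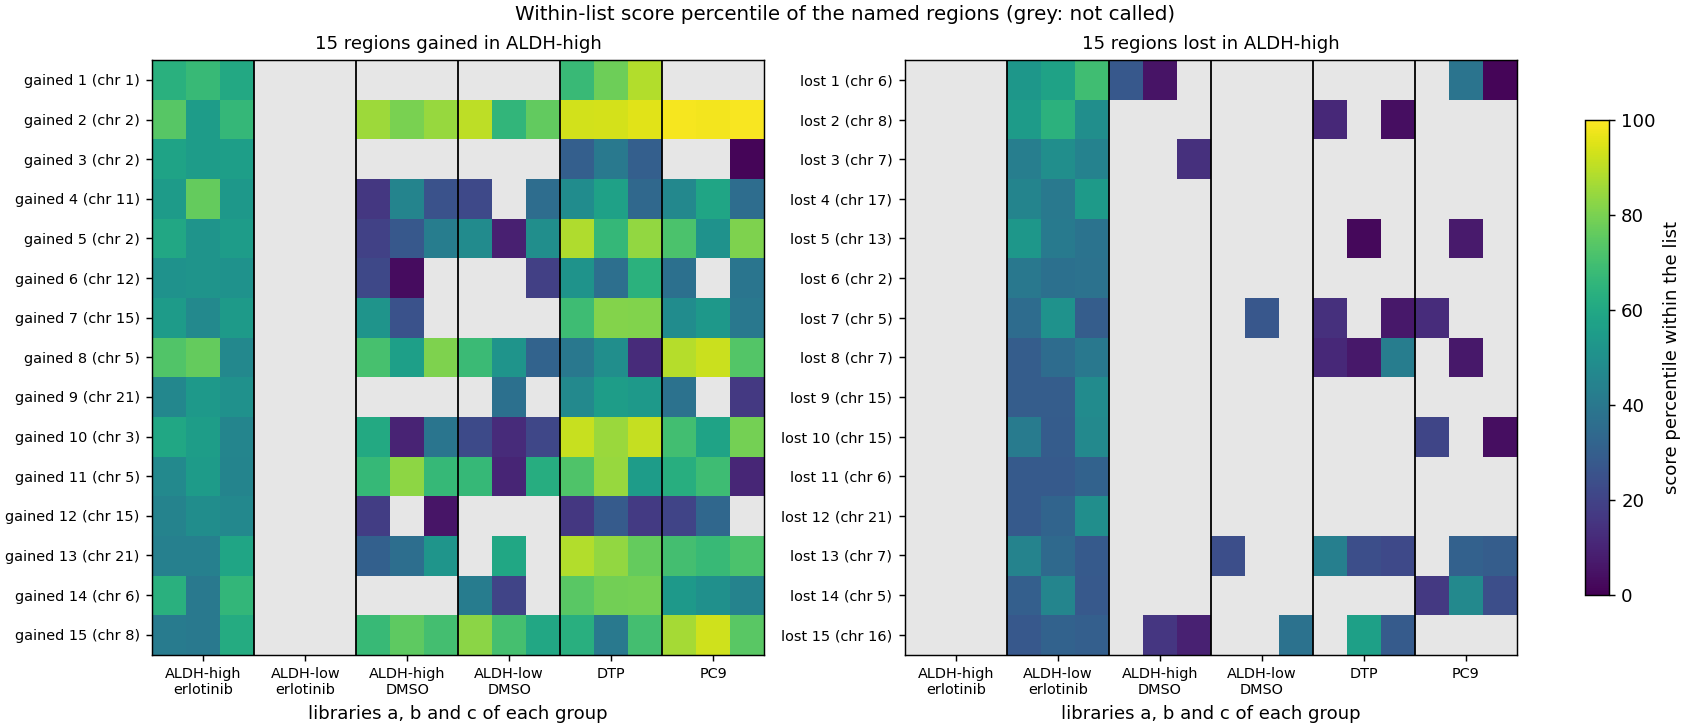
Score percentile within each list (colour, 0 to 100) of the 15 strongest gained (left) and 15 strongest lost regions (right) in all 18 libraries, with groups along the horizontal axis and libraries not calling a region in grey. On the left the grey block is ALDH-low erlotinib, while all 15 regions were called in every DTP library; on the right most cells outside ALDH-low erlotinib are grey, and 5 regions were called in no other library.

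Few regions separated the fractions with and without the drug. Of the 515 gained regions, 13 (2.52%) were also called in all 3 ALDH-high and no ALDH-low DMSO libraries, and 0 of the 256 lost regions showed the reverse under DMSO. Among all merged regions those patterns held for 504 (0.876%) and 58 (0.101%). The first of the 13, chr6:21679063-21679856, stood at 20.8, 21.1 and 25.2 in ALDH-high erlotinib libraries and at 13.4, 70.7 and 35.8 in ALDH-high DMSO libraries. It was called in all DTP and PC9 libraries, so among the 18 it was missing from the 6 ALDH-low libraries alone. In equal-size lists, where the DMSO lists no longer differed in length, 1 of 318 gained and 2 of 248 lost regions were shared, and the patterns held for 0.396% and 0.343% of merged regions. The larger share of gained regions was thus seen with whole lists only. The gained one, chr7:151000211-151001237, stood at 21.2, 12.2 and 14.7 in ALDH-high erlotinib and at 38.7, 24.5 and 2.17 in ALDH-high DMSO libraries, and in no other library. The lost region chr16:88752290-88753517 was its counterpart, with 17.6, 23.5 and 17.6 in ALDH-low erlotinib, 12.9, 51.2 and 29.8 in ALDH-low DMSO and no other call.

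Strong sites common to both fractions were also compared by rank. Among the 17241 regions held by all 6 equal-size lists, 1434 (8.32%) ranked higher in every ALDH-high than in any ALDH-low erlotinib library and 1444 (8.38%) ranked lower. The split was even, and the sets are described without a test because these 6 lists chose them. Random order of the 6 lists would also fill each set, with a single assignment out of the 20 of 3 lists against 3. A large part of each set may therefore hold no difference between the fractions. The median percentile of the first set was 76.5, 77.3 and 76.4 in ALDH-high erlotinib libraries, against 57.6, 58.1 and 55.5 in ALDH-low erlotinib libraries. For the second it was 56.6, 55.9 and 56.7 in ALDH-high and 74.6, 75.4 and 75.7 in ALDH-low erlotinib libraries.

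In both sets the 12 other libraries ranked the sites closer to ALDH-high than to ALDH-low erlotinib cells. Here a region without a top peak counted as percentile 0. The first set had mean medians of 72.6 ± 0.249 in ALDH-high DMSO, 70.6 ± 1.25 in ALDH-low DMSO, 72.1 ± 0.277 in DTP and 73.6 ± 0.364 in PC9 (SD, n = 3 each). The differences of these 4 groups from ALDH-high erlotinib were −6.05 to −3.14 points, and from ALDH-low erlotinib 13.6 to 16.5 points. The second set had 58.1 ± 0.628 in ALDH-high DMSO, 61.3 ± 0.396 in ALDH-low DMSO, 57.3 ± 1.05 in DTP and 53.3 ± 0.986 in PC9. Their differences were −3.15 to 4.93 points from ALDH-high erlotinib and −22 to −13.9 points from ALDH-low erlotinib. Over all common regions the same means spanned 60.8 to 66.8 points, from PC9 to ALDH-low erlotinib, so part of each gap is shared by all regions. ALDH-low DMSO was the group nearest to ALDH-low erlotinib in both sets. The DMSO fractions differed by 1.94 points in the first set and by −3.27 in the second, without overlap in either case (exact permutation p = 0.1 each, the smallest possible).

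The largest single differences, picked after their values were seen, show both sides. The region chr10:88427451-88429110 stood at 74.2, 74.1 and 82.4 in ALDH-high erlotinib libraries, against 18.7, 17.0 and 17.1 in ALDH-low erlotinib libraries. Under DMSO it had 43.0, 53.7 and 29.4 in ALDH-high libraries and a single ALDH-low call at 6.14. The fractions were therefore apart at this site with and without erlotinib. The region chr2:223620598-223622624 stood at 92.4, 91.7 and 86.9 in ALDH-high erlotinib, against 41.4, 42.1 and 39.3 in ALDH-low erlotinib libraries. It ranked between 81.1 and 97.8 in all 12 other libraries, so ALDH-low erlotinib was the group that stood apart there. In the other direction the largest difference was at chr2:220549240-220551633, with 1.53, 7.26 and 10.1 in ALDH-high and 65.6, 48.0 and 46.9 in ALDH-low erlotinib libraries. All 6 DMSO libraries called it, and no DTP or PC9 library did. Next came chr8:107737738-107738737, with 10.4, 9.59 and 19 in ALDH-high and 48.3, 71.8 and 61.7 in ALDH-low erlotinib libraries. DTP libraries had 70.5, 75.9 and 81.5 there, near the ALDH-low erlotinib values. After these, chr4:145924493-145925517 had 5.27, 18.5 and 28.0 in ALDH-high erlotinib and 56.5, 74.6 and 70.6 in ALDH-low erlotinib libraries, and no top peak in any other library.

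The likeness between lists, which uses no selected region, also set the other groups closer to ALDH-high than to ALDH-low erlotinib cells. The order of the groups was not the same as in the rank sets. The Jaccard index is the number of bases called in both of 2 lists divided by the bases called in either. Each erlotinib library was compared with the 3 libraries of each other group, in equal-size lists. Its mean with PC9 was 0.524, 0.520 and 0.520 for ALDH-high libraries, against 0.498, 0.498 and 0.495 for ALDH-low libraries. With DTP it was 0.541, 0.536 and 0.540 for ALDH-high and 0.521, 0.520 and 0.514 for ALDH-low libraries. With ALDH-high DMSO it was 0.551 ± 0.000444 for ALDH-high and 0.533 ± 0.00171 for ALDH-low libraries, and with ALDH-low DMSO 0.534 ± 0.00117 for ALDH-high and 0.523 ± 0.00132 for ALDH-low libraries (SD, n = 3 each). Every ALDH-high erlotinib library was closer to each of the 4 groups than any ALDH-low erlotinib library was, even to ALDH-low DMSO cells.

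The 4 differences were 0.0244 for PC9, 0.0209 for DTP, 0.0185 for ALDH-high DMSO and 0.0109 for ALDH-low DMSO (exact permutation p = 0.1 each, the smallest possible, so none could pass after adjustment over the 4). With whole lists they were 0.0214, 0.0213, 0.0134 and 0.00443, and the last had overlapping ranges (exact permutation p = 0.7). Between themselves, in equal-size lists, erlotinib libraries of the same fraction had a mean index of 0.642, against 0.626 for libraries of different fractions (difference 0.0166, exact permutation p = 0.1). Single pairs overlapped, at 0.633 to 0.653 within and 0.611 to 0.64 between fractions. Both fractions under erlotinib were thus more like each other than either was like any other group.

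**Figure D4:**
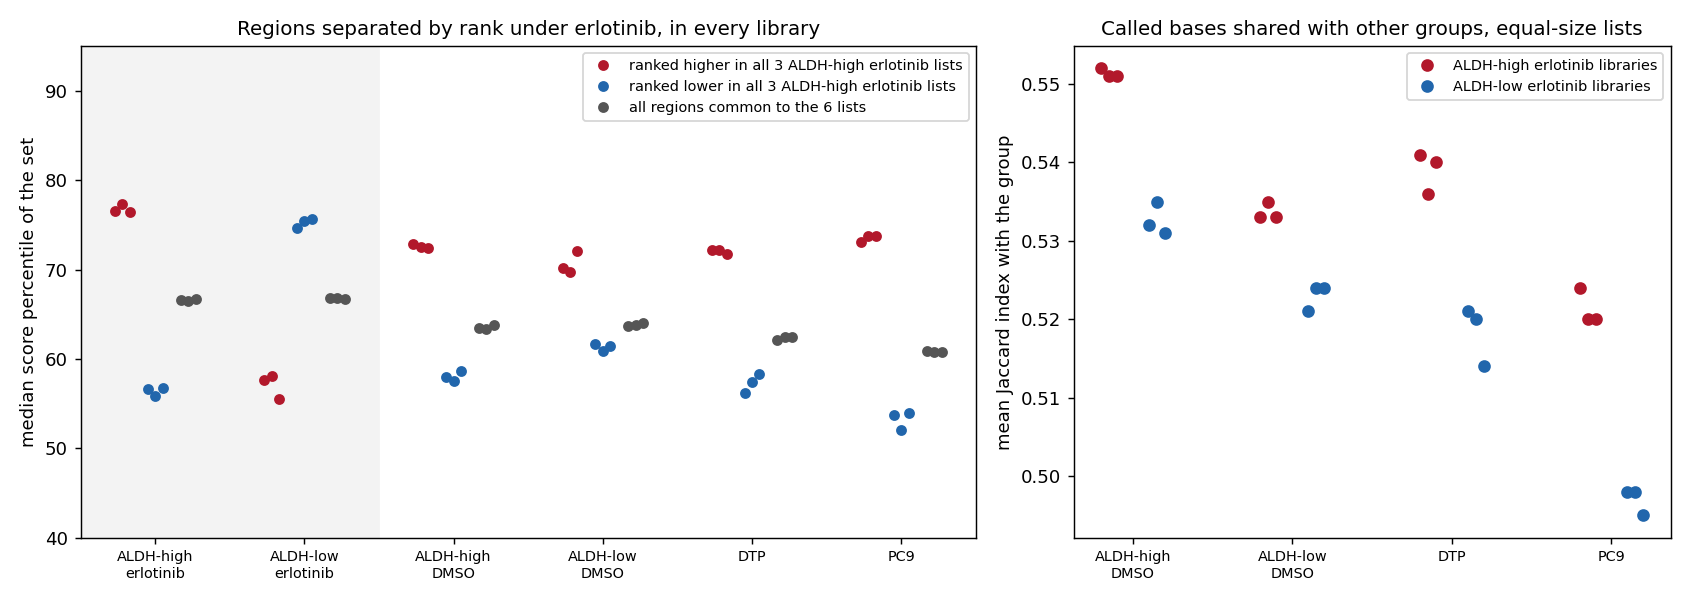
Left, the median score percentile, in each of the 18 libraries, of common regions ranking higher (red) or lower (blue) in all 3 ALDH-high erlotinib lists and of all common regions (grey), with the 6 libraries that chose the sets shaded; right, the mean Jaccard index of each erlotinib library with the 3 libraries of each other group. Outside the shaded part red lies near 70 to 74 and blue near 52 to 62, as in ALDH-high and not in ALDH-low erlotinib, and on the right all ALDH-high points lie above the ALDH-low points of the same group.

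By chromosome, common sites on chromosomes 19, 22 and 9 ranked lower in ALDH-high than in ALDH-low cells. The median percentile of the 658 common regions of chromosome 19 was 57.1, 59.1 and 61.8 in ALDH-high erlotinib libraries, against 67.8, 66.2 and 69.1 in ALDH-low erlotinib libraries. Under DMSO it was 55.6, 56.0 and 56.2 in ALDH-high and 58.0, 59.4 and 60.0 in ALDH-low libraries. The ranges did not overlap under either treatment. For the 339 regions of chromosome 22 the medians were 54.5, 56.9 and 56.3 in ALDH-high and 63.0, 63.2 and 61.5 in ALDH-low erlotinib libraries, and 46.9, 47.0 and 47.4 in ALDH-high and 52.0, 52.4 and 54.3 in ALDH-low DMSO libraries. Chromosome 9 differed less, with 61.9, 63.0 and 62.3 in ALDH-high and 64.3, 65.0 and 64.6 in ALDH-low erlotinib libraries.

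Over both treatments, exchanging fraction labels within each treatment in 400 ways, the mean differences were −5.77 points on chromosome 19, −6.23 on 22 and −2.36 on 9. Each had an exact permutation p = 0.005, the smallest possible, and an adjusted p of 0.0383 over 23 chromosomes. No chromosome ranked higher in ALDH-high cells at that threshold, and 4 lower and 2 higher had an unadjusted p under 0.05. Under erlotinib alone the ranges did not overlap on 6 chromosomes that ranked lower and 3 that ranked higher in ALDH-high cells. Among the 6 were chromosomes 16 (−3.32 points) and 17 (−2.29). Over both treatments their adjusted p from the same permutation test was 0.0575 and 0.23. The differences on chromosome 19 were −8.37 points under erlotinib and −3.17 under DMSO, on 22 −6.65 and −5.8, and on 9 −2.27 and −2.46. No difference between treatments had an unadjusted p under 0.05 on any chromosome. Within either treatment alone, each of chromosomes 19, 22 and 9 had an exact permutation p = 0.1, the smallest possible. Without ALDH-low DMSO library b all 3 adjusted p were above 0.05, at 0.0575 on 19 and 22 and at 0.0767 on 9. The differences were then −5.7 points on 19, −6.35 on 22 and −2.27 on 9.

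Counted by site, the lower ranks were seen on chromosomes 19 and 22 and little on 9. These counts come from the same erlotinib lists as the medians, so they describe that result and do not add to it. On chromosome 19, 127 of 658 common regions (19.3%) ranked lower in all ALDH-high erlotinib libraries and 15 (2.28%) ranked higher, against 8.38% and 8.32% of common regions on all chromosomes. On chromosome 22, 60 of 339 (17.7%) ranked lower and 7 (2.06%) higher. Chromosome 16 had 11.1% lower and 5.48% higher, and chromosome 17 had 12.4% and 4.77%. On chromosome 9, 65 of 686 (9.48%) ranked lower and 42 (6.12%) higher, near the shares over all chromosomes. Its share of the peaks of equal-size lists was 4.06% ± 0.0422 in ALDH-high and 4.01% ± 0.0137 in ALDH-low erlotinib libraries (SD, n = 3 each). Chromosome 19 also held 6 gained and 15 lost regions, and 3.33% of merged regions. The share of the peaks of equal-size lists lying on chromosome 19 was 3.5%, 3.58% and 3.56% in ALDH-high and 4.03%, 3.83% and 4.08% in ALDH-low erlotinib libraries. Chromosome 19 medians in DTP were 64.4, 66.0 and 67.3, against 55.7, 55.0 and 53.7 in PC9.

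**Figure D5:**
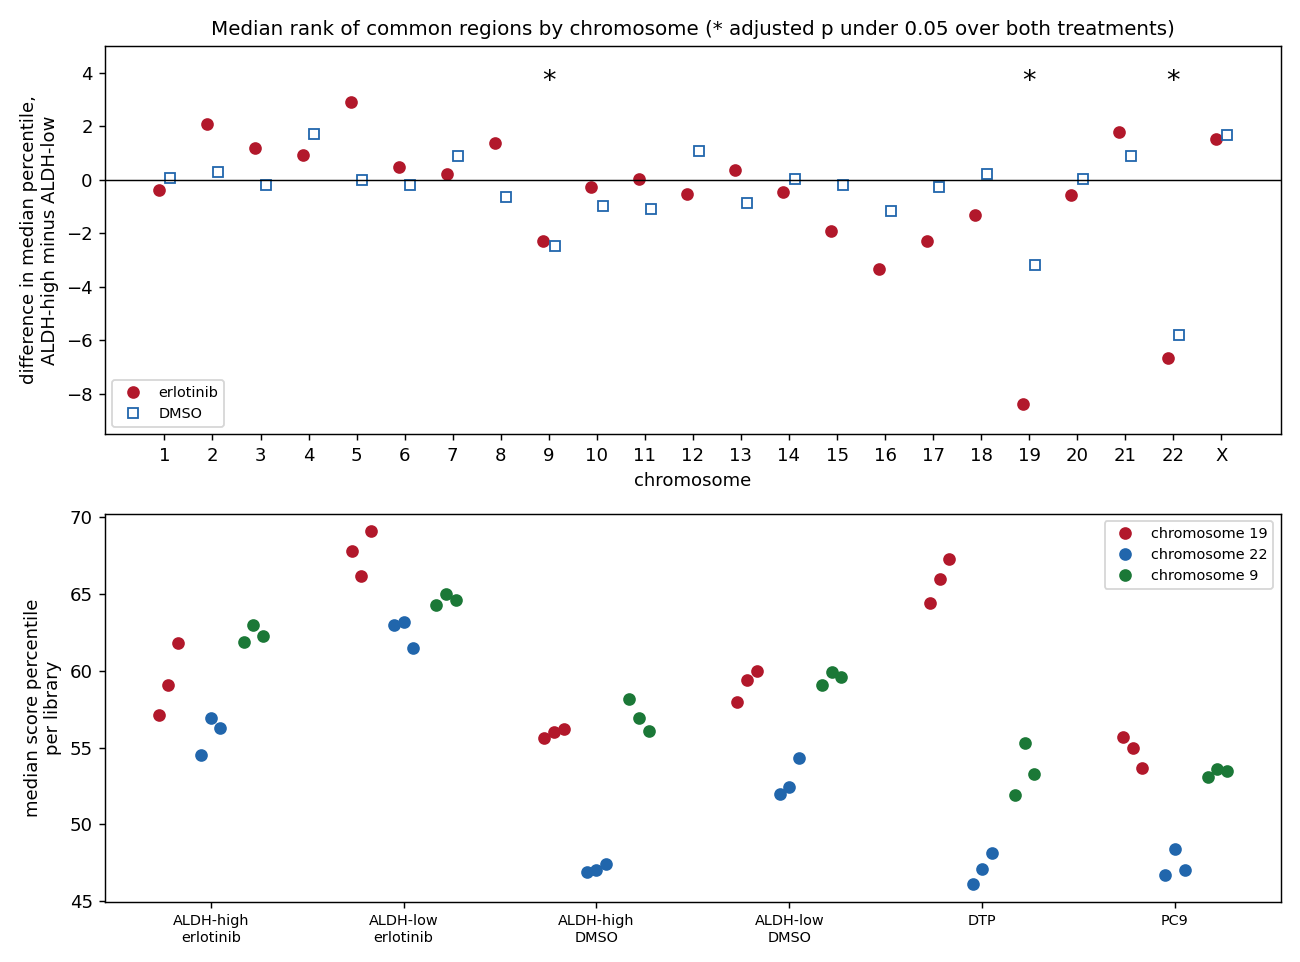
Top, the difference in median score percentile of common regions between ALDH-high and ALDH-low cells on each chromosome, under erlotinib (red circles) and DMSO (blue squares), with asterisks for adjusted p under 0.05 over both treatments; bottom, the medians of chromosomes 19, 22 and 9 in each library. Chromosomes 19 (−8.37 and −3.17) and 22 (−6.65 and −5.8) lie lowest, and ALDH-high points lie below ALDH-low points of the same treatment.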

How the data were processed

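ATAC-seq peak lists of PC9 cells were analysed as deposited, 1 list per library. Per the submitters' processing notes, BWA, MACS 1.4.2 and the hg19 build were used. The sources used here do not give trimming, duplicate removal, read shifting or calling settings. The deposited score of each peak has no stated scale and a floor of about 70 in each list, so scores served only to rank peaks within a list. Read depth is unknown, and a missing peak means that it was not called, which depth can also set. Replicates were called separately.

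Peaks were merged where they shared at least 1 bp. The union was identical to that of bedtools 2.31.1, as were the calls in 6 of 6 libraries, and the procedure was tested on simulated data. Single values were compared by two-sided exact permutation tests in Python 3.11.15 (numpy 2.4.6, pandas 2.3.3, scipy 1.17.1), with Benjamini-Hochberg adjustment over chromosomes. Percentiles are ranks of the score among the peaks of a list. Named regions were the 15 per direction with the highest percentile in their weakest library, those separated under both treatments, and the 5 just inside and outside the rule. Members and lists were chosen with earlier results of these data known. The analyses of rank, chromosomes and likeness to other groups were added after seeing the data. Gene, promoter and motif analyses planned for these regions were not run, since the gene table at hand is of another build and no hg19 sequence was used here. Alternatives were equal-size lists, a score of at least 100, peaks covering 50% of a region, a rule of 2 of 3 libraries, leaving out each library, and a replicate block.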

Additional observations from a re-analysis of the deposited data

How the results depend on the processing

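Counts of gained and lost regions followed the rule: 2 of 3 libraries gave 2369 and 1357, and equal-size lists 318 gained. Leaving out each library gave 703 to 1506 gained, 388 to 870 lost, 2217 to 2323 higher-ranking and 2302 to 2393 lower-ranking regions, which grow by construction since fewer libraries must be separated. Of the 15 regions named per direction from equal-size lists, 2 gained and 1 lost were separated in whole lists. Of the 15 named per direction from whole lists, 15 gained and 8 lost stayed separated in equal-size lists, and 7 lost did not.

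Differences within the spread turned sign, and so did the DMSO share of lost regions, whose ranges had not overlapped. Leaving out each library gave −21.67 to 4085 peaks, −0.5914 to 3.826 Mb and −11.5 to 2.083 bp of median width, and equal-size lists −0.132 Mb and 4.667 bp. The share of gained regions called in DTP and PC9 differed by 3.366 points with a score of at least 100, 5.243 with whole lists and 2.201 with members from equal-size lists. For lost regions it differed by 4.036, 6.38 and 0.2688, by 0.651 with 50% coverage, and by −1.302 to 0.1302 without each library. The DMSO share of lost regions differed by 2.344 with a score of at least 100 and by 6.771 with whole lists. The cause was not tested.

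Leaving out each sorted library gave −6.38 to −5.208 points on chromosome 19, −6.493 to −5.867 on 22 and −2.64 to −2.121 on 9. Without ALDH-low DMSO library a the adjusted p of chromosome 9 was 0.0575. Without library b none passed, and without library c 3 chromosomes passed as lower and 2 as higher. By share of peaks, chromosome 9 differed by −0.02288 points (exact permutation test, adjusted p = 0.764), and 2 chromosomes passed as lower and 3 as higher.

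With the replicate block, which exchanges only libraries of the same letter, the differences stayed −5.768, −6.226 and −2.36 points with an adjusted p of 0.18 each, and no chromosome passed (64 assignments, smallest p 0.03125). The labels do not say whether libraries of the same letter shared a culture, sort or day. Between the fractions of a treatment, their deviations from the group means correlated by −0.0172 to 0.0131. Those of different letters correlated by −0.0288 to 0.0237. Such values cannot settle what the letters mean. With 3 pairs the smallest p is 0.25. Differences in the Jaccard index kept their sign under every alternative run.

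Read depth is unknown, so a missing call and a shallow library cannot be told apart.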
